A study of Mus musculus with 16 samples.

Results

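The developmental homeobox and paired-box genes outside the Hox clusters were followed in mouse embryonic stem (ES) cells that lose Rybp. Genes were taken by symbol from the Pax, Lhx, Lmx1, Nkx, sine oculis, Dlx, Irx, Msx, Evx and Gbx families, and 60 of 18193 genes with a probe set of a single symbol matched. Of these, 54 are homeobox or paired-box genes, namely 8 Pax, 10 Lhx or Lmx1, 12 Nkx, 6 Dlx, 6 Irx, 3 Msx, 2 Evx and 2 Gbx genes and the 5 sine oculis genes Six2 to Six6. The letters of the rule also admitted 5 opposite-strand RNAs (Dlx1as, Dlx6os1, Dlx6os2, Pax6os1 and Six3os1) and Paxbp1, which encodes a protein that binds Pax factors. These 6 were set apart, and all counts below are over the 54 genes.

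The cells were ES cell clones 10 and 15 of a 129/B6 hybrid background, grown with serum and leukaemia inhibitory factor on irradiated fibroblasts or on gelatin. The groups were untreated cells, labelled wild-type and called control here, and cells given 800 nM 4-hydroxytamoxifen (OHT) for 24 hours, labelled Rybp-KO and called KO here, each at day 4 and day 12. Each of the 4 groups had 4 arrays, 2 from either clone. OHT was not given to the controls and the labels do not say what it activates, so an effect of OHT itself and the loss of Rybp cannot be told apart. Nothing in the labels ties replicates to separate cultures, and p-values then measure only the spread from array to array, which may be technical.

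Homeodomain and paired-domain proteins bind DNA and specify where and as what a cell develops: Pax6 in the eye, Nkx2-5 in the heart, Six2 in the kidney, Dlx genes in the forebrain and jaw. In ES cells most of these genes are silent and are textbook targets of Polycomb, whose complexes PRC1 and PRC2 modify histones H2A and H3 at unmethylated CpG-rich promoters. Rybp is a subunit of variant PRC1 complexes and binds Ring1 proteins and the DNA-binding factor Yy1.

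Values are linear intensities, quantile-normalized across the 16 arrays, with a median of 93.3 over all probe sets of an array. The 25th percentile, 28.3, served as the floor: intensities under it were taken as near background and raised to it for folds called floored. Where 4 values of a group are given, they run from clone 10 replicates 1 and 2 to clone 15 replicates 1 and 2. Of the 2 Rybp probe sets, which also carry the symbol of its pseudogene, one read at least 2047 in every control and at most 255.7 in every KO array. The other read higher in KO, at most 2771 in control and at least 4374 in KO arrays at day 4. At day 12 these values were 2108 and 2815. Its log2 fold changes were 2.82 and 2.95 (limma adjusted p = 0.154 and 0.0518). All 10 pluripotency markers were above the median on all 16 arrays. Between KO and control, limma called 0 of them at day 4 and 1 lower in KO at day 12. At an unadjusted p under 0.05 it gave 0 and 4 of the 10, against 8.53% and 14.8% of all genes. The 10 markers of primitive endoderm, an extraembryonic lineage, moved with time. Their summed intensity was 3719 to 5374 in control and 3929 to 5053 in KO arrays at day 4, and 11845 to 16787 and 14299 to 25432 at day 12. The 14 fibroblast feeder markers summed to 1681 to 2374 and 1769 to 3357 at day 4, and to 2379 to 2949 and 2648 to 3815 at day 12. The 10 trophectoderm markers, of the other extraembryonic lineage, summed to 4433 to 4798 in control and 5212 to 5851 in KO arrays at day 4, which do not overlap, and to 7153 to 9461 and 7609 to 11762 at day 12. In these bulk samples fewer cells of a type and less RNA per cell cannot be told apart.

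Most of the genes were dim. Of the 54, 12 lay above the floor on all 16 arrays (22.2%, against 62.8% of all genes), and a single array had between 33 and 41 of them above it. Only Six4 and Gbx2 were above the median on all 16 arrays (3.70% of the genes, against 51.3% of all genes), and Dlx1 was under the floor on all 16. The median intensity of the 54 was 54.4, against 196 over all genes. Signal also depends on the probes of a probe set, so an order of genes by intensity is not one of transcript abundance. Six4, which acts with Eya cofactors in muscle and kidney, was the brightest, with a median of 842 and a range of 443 to 1121. Gbx2, known both from the hindbrain boundary and as a target of leukaemia inhibitory factor in ES cells, followed with a median of 314 and a range of 195 to 766. The next 10 by mean level were Irx2, Nkx2-6, Irx3, Pax6, Nkx2-5, Msx2, Six2, Msx1, Six3 and Evx2, with medians from 90.5 for Msx1 to 175 for Nkx2-6. The brightest gene of the Lhx and Lmx1 family was Lmx1a (median 89.1) and that of the Dlx family, which patterns forebrain and skin, was Dlx3 (93.3). Across families the share of genes above the floor on all arrays ran from 3 of 5 sine oculis and 3 of 6 Irx genes to none of the 10 Lhx and Lmx1, 6 Dlx and 2 Evx genes. The 54 genes also scattered more. Within a clone and group the median SD of log2 values was 0.42 (0.27 with the floor), against 0.28 (0.20) over all genes.

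**Figure D1:**
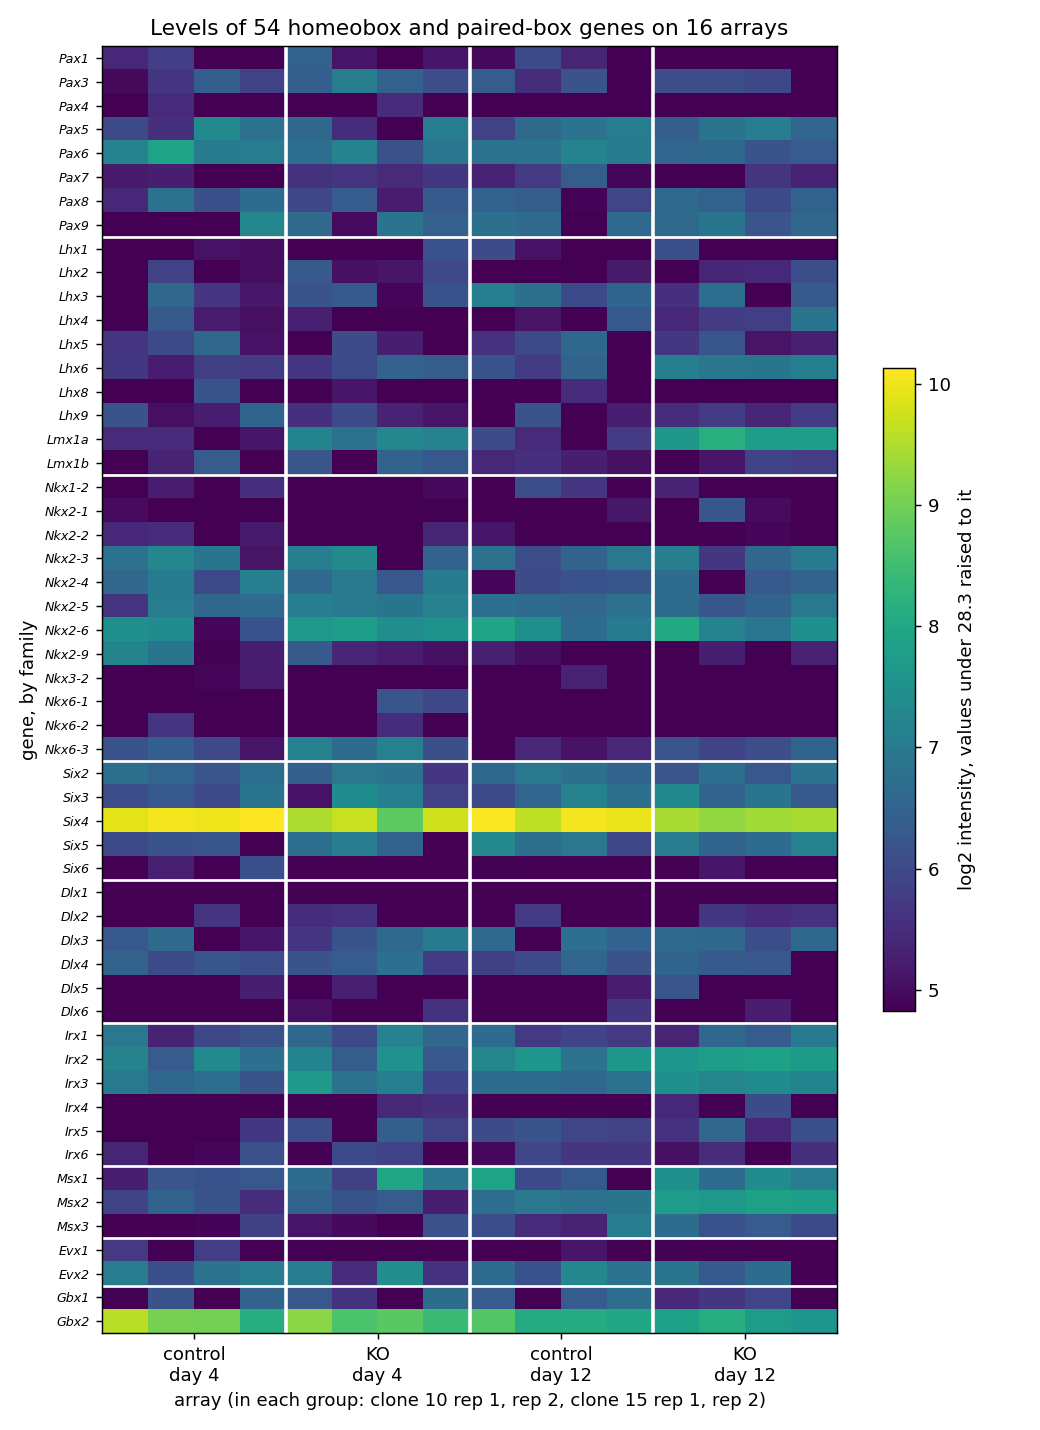
Heat map of the log2 intensity of the 54 genes (rows, by family) on the 16 arrays (columns, 4 per group in the order clone 10 replicates 1 and 2, clone 15 replicates 1 and 2), with values under 28.3 raised to it. Six4 and Gbx2 stand out as bright rows, Lmx1a brightens in both KO groups, and Msx2 reads brighter at day 12.

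Promoter sequence was examined because Polycomb targets are known for CpG-rich starts. RefSeq (GRCm38.p6) windows from 250 bases before to 50 after the annotated start were matched for 41 of the 54 genes, in 47 windows. Of these windows 29 (61.7%) were CpG-rich, taken as at least 55% GC with an observed over expected CpG ratio of at least 0.6, against 47.3% of 18109 windows of the genes tested and 30.3% of all windows. The median ratio was 0.745, against 0.650 over windows of genes tested. Both strands were searched for an E-box (CACGTG), found in 8.51% of the windows against 8.72% of those of genes tested, an E2F motif (TCCCGC, 27.7% against 29.1%) and the core of the Yy1 motif (CCAT, 63.8% against 78.5%). The 3 genes called in any comparison below are shown by the 250 bases before their start, 5′ to 3′ on the gene's strand, with CpG dinucleotides in capitals. Lmx1a lies at chr1:167689308-167689557 on the plus strand, Msx2 at chr13:53472781-53473030 on the minus strand and Gbx2 at chr1:89931177-89931426 on the minus strand, all upstream of the first exon.
Lmx1a: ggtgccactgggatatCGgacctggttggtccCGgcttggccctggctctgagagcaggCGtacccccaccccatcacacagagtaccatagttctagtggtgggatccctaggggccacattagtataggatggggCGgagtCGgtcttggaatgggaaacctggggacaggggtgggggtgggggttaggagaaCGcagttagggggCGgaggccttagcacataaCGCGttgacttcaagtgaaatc
Msx2: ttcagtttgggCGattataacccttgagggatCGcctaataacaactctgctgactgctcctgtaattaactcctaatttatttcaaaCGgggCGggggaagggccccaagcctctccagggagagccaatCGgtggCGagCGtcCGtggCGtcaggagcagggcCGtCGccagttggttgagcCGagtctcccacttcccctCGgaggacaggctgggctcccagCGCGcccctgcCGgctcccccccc
Gbx2: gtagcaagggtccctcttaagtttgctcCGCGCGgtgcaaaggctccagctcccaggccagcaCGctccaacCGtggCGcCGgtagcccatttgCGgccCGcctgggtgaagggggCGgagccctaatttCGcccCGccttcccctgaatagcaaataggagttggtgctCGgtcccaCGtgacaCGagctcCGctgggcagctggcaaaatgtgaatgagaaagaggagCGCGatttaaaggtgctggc
The 250 bases of Lmx1a hold 9 CpG, those of Msx2 hold 16 and those of Gbx2 hold 18. In the full 300-base windows the ratio was 0.464 for Lmx1a, which was not CpG-rich, 0.789 for Msx2 and 0.861 for Gbx2, which both were. The arrays did not measure binding or methylation.

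**Figure D2:**
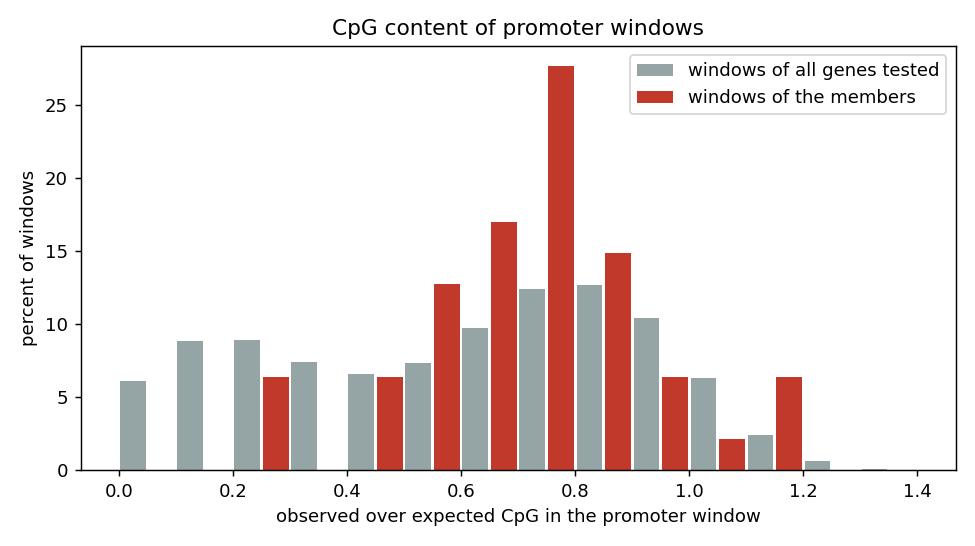
Histogram of the observed over expected CpG ratio (x axis, bins of 0.1) of the 47 promoter windows of the homeobox and paired-box genes (red) and of 18109 windows of the genes tested (grey), each as a percent of its windows (y axis). The red bars gather around the median of 0.745, and the grey bars also fill the low ratios.

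At day 4 none of the 54 genes passed the test, and 28 of the 54 read higher in KO cells. Differences were tested with limma over all 18193 genes, and a gene was called at an adjusted p under 0.05. By that rule 0 of the 54 were higher, against a background of 0.566% of all genes, and 0 lower, against 0.055%. At an unadjusted p under 0.05, limma gave 6 higher and 4 lower (18.5% of the 54, against 8.53% of all genes). The median log2 fold change was 0.04, against 0.01 over all genes. The transferrin receptor control's 3′ over 5′ signal, a sign of RNA quality, was raised at day 4 in the KO array of all 4 pairs (control and KO arrays of the same clone and replicate number, matched by their numbers alone), by 0.20 ± 0.14 (log2, SD), and its part in the day 4 values was not tested.

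Lmx1a, the LIM-homeodomain factor of midbrain dopamine neurons and the roof plate, had the smallest p of the 54 at both days. At day 4 its control arrays read 44.2 and 44.8 in clone 10 and 5.55 and 34.9 in clone 15, and its KO arrays 149 and 111 in clone 10 and 154 and 145 in clone 15. All 4 KO arrays lay above all 4 controls and above the median of the arrays, while 1 control was under the floor. The log2 fold change was 2.48 ± 0.59 (SE, limma adjusted p = 0.110). With the floor it was 1.89 ± 0.23, which only 37 of 18193 genes, itself included, reached. Limma on the floored values called Lmx1a (adjusted p = 0.00108). Raising the control of 5.55 to the floor narrowed the error as well as the fold, so that smaller p is not separate support. Lmx1a was the only one of the 54 called in the floored fit at day 4, where 0.967% of all genes were higher and 0.214% lower.

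At day 12 Lmx1a was higher in KO cells past the threshold. The controls read 66.8 and 44.2 in clone 10 and 11.7 and 53.8 in clone 15, and the KO arrays 198 and 285 in clone 10 and 221 and 223 in clone 15. Again the groups did not overlap, and the lowest KO array stood well above the highest control. The mean went from 44.1 ± 23.5 to 232 ± 37.1 (SD, n = 4), higher by 2.64 ± 0.59 on the log2 scale (limma adjusted p = 0.0306), or 4.998-fold with the floor. That call was lost without any 1 of the 8 arrays of day 12 except control clone 15 replicate 2 (limma adjusted p 0.0527 to 0.0952 in those 7 fits). The log2 fold change was 2.13 in clone 10 alone (limma adjusted p = 0.154) and 3.15 in clone 15 alone (0.6004), where the low control array of each day lies. The floored fit gave 2.32 ± 0.23 and a limma adjusted p of 9.2e-05, and the floor at the median, 93.3, gave 1.30. Raising the control of 11.7 to the floor took its scatter out of the error, so the smaller p is not separate support for the call. The gene has a single probe set. The summed trophectoderm markers were higher in every KO array than in any control at day 4, with 0 of the 10 called by limma (3 at an unadjusted p under 0.05). At day 12 their sums overlapped, but limma called 2 of the 10 higher in KO (background 2.19% of all genes). These were Cdx2 and Gata3, both with means under the floor in the controls of that day. The primitive endoderm and feeder sums overlapped at both days, and limma called 1 of the 10 and 0 of the 14 higher at day 12. The part of these markers' cells in the Lmx1a values was not tested.

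Lmx1a was the only one of the 54 past the threshold at day 12, with 1 higher (background 2.19%) and 0 lower (background 0.896%). At an unadjusted p under 0.05, limma gave 5 higher and 2 lower (12.96% of the 54, against 14.8% of all genes), and the median log2 fold change was -0.01, against 0.01. The close paralogue Lmx1b read a log2 fold change of 1.56 at day 4 (limma adjusted p = 0.610) and 0.02 at day 12 (0.996). A second Lmx1b probe set, with a median of 30.4, just above the floor, read 0.37 and -2.11, so the probe sets differed at day 12. Of the Lhx genes, the largest difference at day 12 was that of Lhx6, a factor of cortical interneurons, with the floor or without. Lhx6 controls at day 12 read 71.4, 54.1, 91.2 and 13.1, and its KO arrays 138, 119.7, 119 and 138. The KO arrays were tight and above every control, of which clone 15 replicate 2 was far below the rest. Its log2 fold change was 1.47 ± 0.47 (limma adjusted p = 0.134), or 2.28-fold with the floor, and a second, dimmer probe set read 0.73. Without that low control array Lhx6 passed.

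Msx2, a homeobox target of BMP signalling in bone, skin and extraembryonic tissue, overlapped between groups at day 4 and did not at day 12, where KO was higher. At day 4 its controls read 59.6, 91.5, 74.00 and 45.2 and its KO arrays 91.9, 73.5, 82.6 and 38.7, which overlap. At day 12 the controls read 106, 121, 112 and 117 and the KO arrays 216, 202, 230.0 and 221. Both day 12 groups were narrow and far apart. The day 12 log2 fold change was 0.93 ± 0.25 with a limma adjusted p of 0.0704, just outside the threshold. Msx2 passed in the floored fit (limma adjusted p = 0.0486) and without KO day 4 clone 15 replicate 2. A second probe set had a median of 17.8, under the floor, and read -0.31. The related Msx1, of jaw and tooth, read a log2 fold change of 0.86 at day 4 (limma adjusted p = 0.808) and 0.95 at day 12 (0.514), higher in KO in 3 of 4 pairs each, while its second probe set, with a median of 55.9, read the other way at both days, -0.41 and -0.31. Msx3 read 0.10 and 0.31.

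Nkx6-3, a stomach epithelium factor, read 71.2, 84.98, 63.6 and 34.7 in control and 143, 104, 141 and 69.7 in KO arrays at day 4. At day 12 it read 15.4, 42.8, 33.7 and 42.9 against 74.3, 60.4, 68.6 and 93.03. It was higher in KO in all 4 pairs of both days, matched by number alone. The groups were apart at day 12 only, which fixes the pair count of that day. The log2 fold changes were 0.86 ± 0.37 (limma adjusted p = 0.526) and 1.23 ± 0.37 (0.112). In the floored fit Lmx1a, Lhx6 (0.0410) and Msx2 were higher at day 12 and 0 lower, against 3.42% and 1.56% of all genes. Irx3, of neural and heart patterning, read 104, 104, 96.4 and 113 in control and 179, 151, 167 and 149.6 in KO arrays at day 12. All 4 KO arrays were above the controls, by 0.63 ± 0.28 on the log2 scale (limma adjusted p = 0.302).

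**Figure D3:**
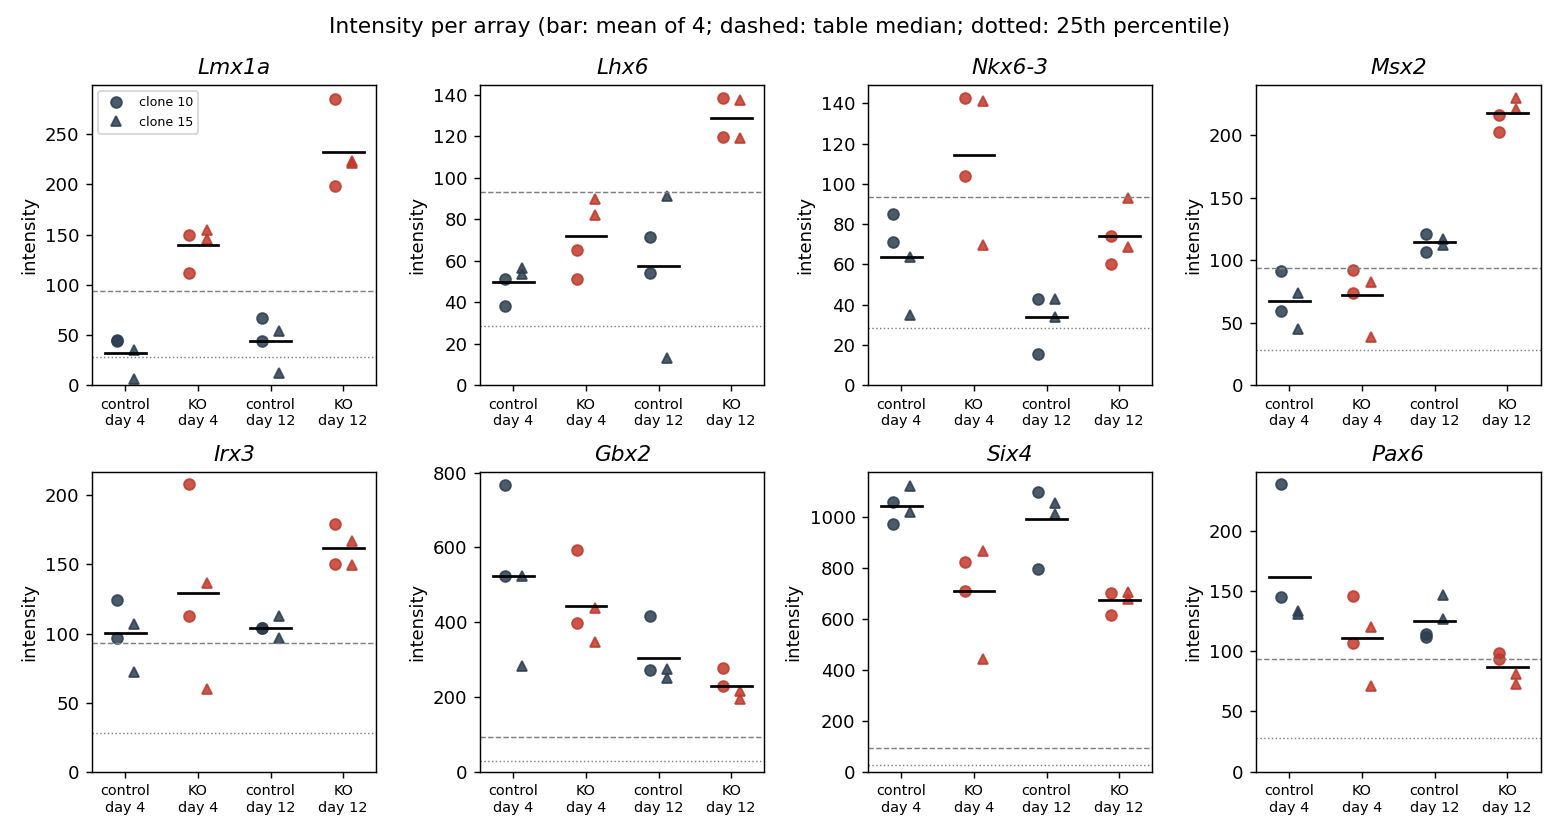
Intensity (y axis, linear, from 0) of 8 genes on each array by group (x axis; blue control, red KO; circles clone 10, triangles clone 15), with a bar at the mean of the 4 arrays, a dashed line at the median of 93.3 and a dotted line at 28.3. The Lmx1a KO arrays lie above all controls at both days, those of Msx2 at day 12 only, and the Six4 KO arrays lie below all controls at both days.

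Six4 and Pax6, which both start from a measurable level, read lower in KO cells without passing. Six4 controls read 969, 1058, 1019 and 1121 at day 4 and 1097, 793, 1055 and 1009 at day 12. Its KO arrays read 710.1, 820.4, 443 and 864, and 702, 615, 676 and 705. No KO array reached a control of its day. The log2 fold changes were -0.60 ± 0.19 (limma adjusted p = 0.273) and -0.54 ± 0.19 (0.182), and its other bright probe sets read -0.32 and -0.34 at day 4 and -0.46 and -0.50 at day 12. Without the lowest array, KO day 4 clone 15 replicate 1, Six4 was lower at day 12 past the threshold. Pax6, the eye and forebrain paired-box factor, read 145, 238, 131 and 133 in control and 107, 146, 70.7 and 120.0 in KO arrays at day 4, and 112, 114, 146 and 126 against 93.7, 98.7, 72.7 and 81.1 at day 12. It was lower in KO in every pair of day 4, matched by number alone, and all KO arrays lay below all controls at day 12. Its log2 fold changes were -0.55 ± 0.22 (limma adjusted p = 0.460) and -0.53 ± 0.22 (0.265), and its 4 other probe sets had medians from 5.70 to 42.3. Of the 3 with medians above the floor, the log2 fold changes were -0.98, -0.95 and 0.00133 at day 4 and -0.33, 0.29 and 0.14 at day 12, so that 2 of them read the other way at day 12.

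Counted by separation, the 4 KO arrays of day 4 lay above all 4 controls for Pax7 and Lmx1a (background 3.48% of all genes) and below them for Six4 (2.01%). At day 12 they lay above for Lhx6, Lmx1a, Nkx6-3, Irx3 and Msx2 (background 7.4%) and below for Pax1, Pax6 and Six4 (4.66%). Pax7, of muscle and neural crest, and Pax1, of the vertebral column, were named from these counts after their values were seen. Pax7 read 0.72 at day 4 and -0.92 at day 12 (limma adjusted p = 0.737 and 0.345) and Pax1 0.93 and -1.52 (0.876 and 0.387), both from dim arrays. Of the 54, only Lmx1a was above at both days (background 1.64% of all genes) and only Six4 below at both (0.561%).

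The remaining named values also missed the threshold. Nkx2-6, of the pharynx and early heart, had the second largest floored difference of day 4. Its controls read 179 and 169.9 in clone 10 and 29.6 and 71.3 in clone 15, and its KO arrays 200.1, 224, 172 and 188, with the low values in the clone 15 controls. The log2 fold change was 1.13 ± 0.37 (limma adjusted p = 0.295) at day 4 and 0.14 at day 12. Pax9, of teeth and thymus, read 1.14 and 0.49 (limma adjusted p = 0.774 and 0.831). The bright Nkx2-5, Six2, Six3 and Irx2 read 0.54, -0.11, 0.06 and -0.07 at day 4 and -0.10, -0.19, 0.12 and 0.42 at day 12. Evx2 read -0.36 and -0.68 and Dlx3 0.70 and 0.37.

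Genomic neighbours were read side by side. On chromosome 8 Irx3, Irx5 and Irx6 read log2 fold changes of 0.26, 2.17 and -0.42 at day 4 and 0.63, -0.08 and -0.54 at day 12. On chromosome 13 Irx1, Irx2 and Irx4 read 0.49, -0.07 and 1.25, then 0.34, 0.42 and 1.19. On chromosome 11 Dlx3 and Dlx4 read 0.70 and 0.04, then 0.37 and -0.15. On chromosome 12 Six6 read -3.27 from arrays mostly under the floor (limma adjusted p = 0.249, or 0.735-fold with the floor) beside -0.60 for Six4, and at day 12 -0.80 beside -0.54. None of these passed.

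**Figure D4:**
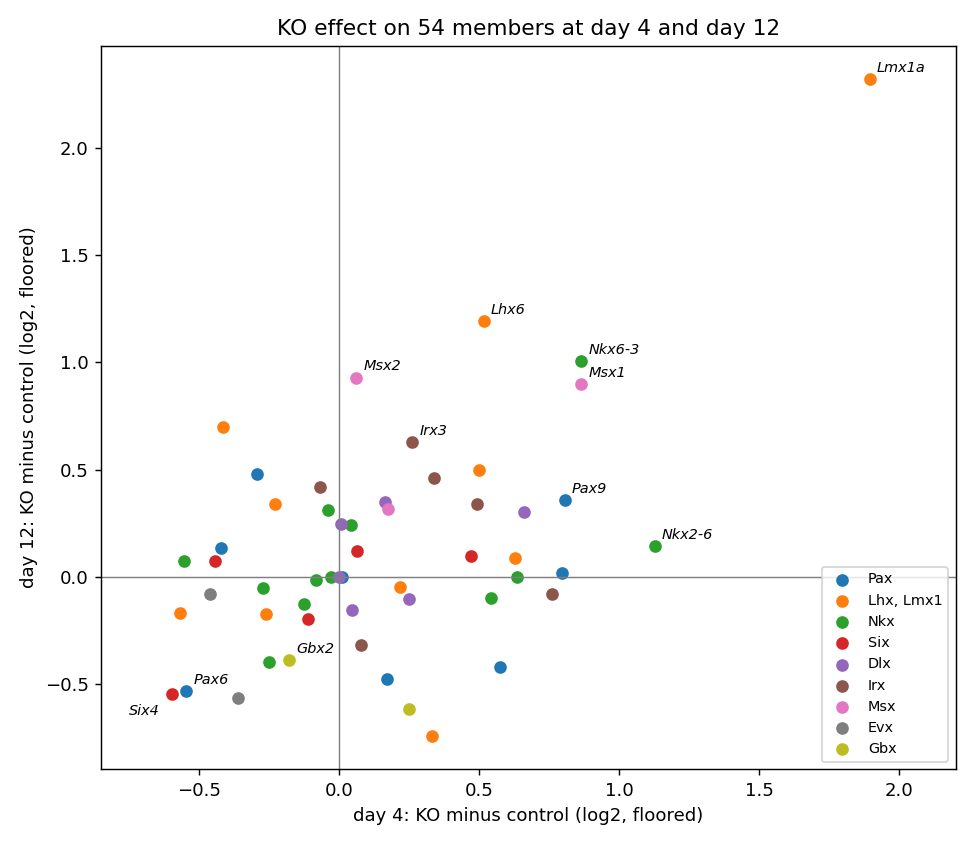
Log2 difference between KO and control means at day 4 (x axis) and day 12 (y axis) for the 54 genes, coloured by family, with values under 28.3 raised to it first. Lmx1a lies alone at the upper right (1.89 and 2.32), Msx2 is near 0 on the day 4 axis and at 0.93 on the day 12 axis, and Six4 and Pax6 are at the lower left.

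By family, the median log2 fold change at day 4 was 0.48 for Pax, 0.08 for Lhx and Lmx1, -0.51 for Nkx, -0.11 for sine oculis, -0.07 for Dlx, 0.37 for Irx, 0.10 for Msx, -1.06 for Evx and 0.48 for Gbx genes. At day 12 it was -0.31, 0.19, -0.05, -0.19, 0.15, 0.38, 0.93, -0.75 and -0.47 in the same order. With the floor the Pax median was 0.09 and 0.01 and the Nkx median -0.04 and 0, both closer to 0. With the floor the median was also positive at both days for Lhx and Lmx1 (0.27 and 0.21), Dlx (0.10 and 0.12), Irx (0.30 and 0.38) and Msx (0.17 and 0.90), and negative at both for Evx (-0.41 and -0.32). The floored median differed in sign between the days for sine oculis (-0.11 and 0.07) and Gbx genes (0.03 and -0.50). Without the floor the medians of single pairs at day 4 ran from -0.05 to 1.08 for Irx and from -0.32 to 1.25 for Msx, and at day 12 from 0.24 to 0.63 and from 0.60 to 1.03. For Lhx and Lmx1 they ran from -0.27 to 0.80 at day 4 and from 0.09 to 0.80 at day 12. For Dlx they crossed 0 at both days (-0.30 to 0.38 and -0.22 to 0.17). For the 2 Evx genes they ran from -1.90 to -0.43 and from -2.20 to 0.39.

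Between the days, Msx2 rose and Gbx2 fell in KO cells. In KO cells at day 12 against day 4, 1 of the 54 was higher (background 2.24%) and 1 lower (1.03%). Msx2 went from 71.6 ± 23.2 to 217 ± 11.5 (SD, n = 4), up by 1.67 ± 0.25 on the log2 scale (limma adjusted p = 0.00317), a call kept in all 16 fits without 1 array. In untreated cells Msx2 went from 67.6 ± 19.8 to 114 ± 6.25, by 0.80 ± 0.25 (limma adjusted p = 0.159). The difference of these changes was 0.87 ± 0.35 (limma unadjusted p = 0.0285, adjusted p = 0.9999), so the difference between treatments missed the threshold. Limma also called all 10 primitive endoderm markers higher at day 12 than at day 4 in KO cells, and 5 in control cells. Their median log2 fold changes were 2.97 and 2.04, with 10 and 9 at an unadjusted p under 0.05. For the difference of the KO effect between the days, limma called 0 of the 10. Gata6 of that list was the 1 marker higher in KO than control at day 12, and the part of these cells in the Msx2 values was not tested.

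Gbx2 read 766, 524, 523 and 282 in control and 594, 398, 438 and 346 in KO arrays at day 4, and 416, 272, 276 and 252 against 229.6, 279, 215 and 195 at day 12. Levels read lower at day 12 under both treatments, and control and KO overlapped on both days. In KO cells the change was -0.93 ± 0.23 (log2, limma adjusted p = 0.0427), and in untreated cells -0.73 ± 0.23 (0.161). The KO call was lost with every probe set tested (0.0603), and when any 1 of 12 arrays was left out (limma adjusted p 0.0502 to 0.119). These were the 8 KO arrays, the second clone 10 control of day 4, and all day 12 controls but the second of clone 10. Without the second clone 15 control of day 12, Lhx6 passed as higher between the days in KO cells. In untreated cells 0 of the 54 were higher (background 0.654%) and 0 lower (0.341%) at day 12, with 3 and 3 at an unadjusted p under 0.05 by limma (11.1% of the 54, against 13.9% of all genes). For the KO effect at day 12 less that at day 4, limma called 0 and 0 (background 0% each), with 2 higher and 2 lower at an unadjusted p under 0.05 (7.41%, against 4.57% of all genes).

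The clones did not differ past the threshold. Clone 15 against clone 10 gave 0 higher (background 0.104%) and 0 lower (0.0879%), and limma gave 2 lower at an unadjusted p under 0.05 (3.70% of the 54, against 7.16% of all genes), Nkx2-6 (-0.86, adjusted p = 0.421) and Gbx2 (-0.42, 0.603). The KO effect of clone 15 less that of clone 10 was called by limma for 0 of the 54 at either day (background 0% in each direction), with 5 at day 4 and 1 at day 12 at an unadjusted p under 0.05 (9.26% of the 54 against 3.13% of all genes, and 1.85% against 2.89%).

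Lists of related genes, drawn up apart from the families, gave the surroundings. Over all genes limma called 0.566% higher and 0.055% lower at day 4, and 2.19% and 0.896% at day 12. At an unadjusted p under 0.05 limma gave 8.53% of all genes at day 4 and 14.8% at day 12. Of 48 other homeobox genes limma called 0 at day 4. At day 12 Cdx2, of the trophectoderm, was higher by 2.55 on the log2 scale (limma adjusted p = 0.0103). Cdx2 read 7.34 ± 4.57 in control, under the floor, and 46.7 ± 32.3 in KO. Otx2 and Phox2a were lower (-1.70 and -0.67, limma adjusted p = 0.00267 and 0.00787). At an unadjusted p under 0.05 limma gave 4 of the 48 at day 4 and 6 at day 12. Of 36 other developmental transcription factors often bound by Polycomb, limma called 0 at day 4 (4 unadjusted). At day 12 (7 unadjusted) Gata6, Gata3 and Tbx3 were higher (0.98, 2.47 and 1.22, limma adjusted p = 0.0483, 0.00711 and 0.0133) and Olig1 lower (-0.76, 0.0167). The median log2 fold change of these lists at day 12 was 0.03 and -0.00477, against -0.01 for the 54 genes. Of 27 PRC1 components Phc2 was higher at both days (0.97 and 0.91, limma adjusted p = 0.0468 and 0.0241) and E2f6 at day 12 (0.69, 0.0446). Of 12 PRC2 components Ezh1 was lower at day 12 (-0.64, limma adjusted p = 0.0249). At an unadjusted p under 0.05 limma gave 4 and 8 of the PRC1 components at day 4 and day 12, and 1 and 3 of the PRC2 components. Of 10 neural progenitor, 9 mesoderm and 7 neural crest markers, tissues in which the 54 genes act, limma called 0 between KO and control at either day. At an unadjusted p under 0.05 it gave 0, 0 and 1 of them at day 4 and 4, 0 and 1 at day 12.

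Of the 6 entries set apart, Paxbp1 was bright, from 1359.7 to 1963 over the 16 arrays, and read log2 fold changes of -0.14 and -0.03. The opposite-strand RNAs were dim, with medians from 5.70 for Six3os1 to 28.6 for Dlx6os1, and none passed. Dlx1as arrays at day 4 were higher in all 4 KO than in all controls (log2 fold change 1.93, limma adjusted p = 0.495), but its mean of 27.5 ± 6.84 in KO was itself under the floor.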

How the data were processed

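Transcripts were measured on 16 arrays of biotin-labelled cRNA, 4 per group. The authors deposited linear intensity values, 1 per probe set and array, which per the submitters' processing notes came from RMA and Affymetrix Expression Console (versions and settings not given in the sources used here). The table holds 45101 probe sets, more than the 430A 2.0 array named in the design text has. Sorted, the 16 columns are identical, so they had been quantile-normalized together. Intensity was log2-transformed with no offset, since the fit had been planned for log2 values. The number of arrays limits the precision.

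Of 34945 probe sets with a single symbol, named through the platform annotation, the one with the highest mean stood for each of 18193 genes. The 2 Rybp probe sets, which carry a second symbol, were added as entries. The 54 genes have several probe sets in 23 cases. The fit, with limma 3.58.1 in R 4.3.3, used a mean per group and a clone term with empirical Bayes moderation. P-values were Benjamini-Hochberg adjusted over all entries, and a gene was called under 0.05. The fit was run on simulated arrays with independent noise and no clone or replicate structure, so that run could not check it for shared batches. Errors of log2 fold changes are standard errors.

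Genes named are those past the threshold in any comparison, the 12 brightest, the brightest of each family, the 5 largest floored differences of each day, genomic neighbours of these within a family, and genes past the threshold in the other lists, at most 4 a list. Genes named from small counts are marked in the text. The 54 genes and the lists were chosen with earlier results of these data known.

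Replicate numbers were not used to pair arrays in the fit. Alternatives covered the floor, a filter on dim genes, the variance trend, the choice of probe set, the clone term, blocks, subsets of arrays and each array left out.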

Additional observations from a re-analysis of the deposited data

Results flagged for a closer look

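Among 13 genes (the called and the 12 brightest), each of the 4 groups of 4 arrays was checked for an array far from the other 3 on the log2 scale, 52 groups in all, of which about 1 in 20 is marked by chance. Of the 52, 2 were flagged, a count near that rate, each for a single gene on a different control day 4 array. Lmx1a read 5.55 in clone 15 replicate 1, against 34.9 to 44.8 on the other 3 arrays, a value under the floor of 28.3. Msx1 read 38.5 in clone 10 replicate 1, against 71.6 to 77.3 on the others. Neither array was the low one for the other gene.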

How the results depend on the processing

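The median log2 fold changes of the 54 genes at day 4 and day 12 moved by less than the spread between pairs under every alternative run. The day 12 median lay near 0 and changed sign with the floor, from -0.01 to 0.05. Some family medians also changed sign with the floor. No call changed direction. At day 4 the floored values gave 1 gene higher in place of 0, and 0 were lower under every alternative. Over all genes, the floored values gave 215 calls in either direction at day 4, in place of 113. At day 12 the count of genes higher, 1 (Lmx1a), was 3 with the floored values, 2 with dim genes left out (Msx2 added), 3 with the 8 pairs of clone, day and number as a replicate block (Msx2, limma adjusted p = 0.0166, and Nkx6-3, 0.0417, added), 3 with a replicate block by day, and 0 in clone 10 alone, clone 15 alone, replicate number 1 alone and replicate number 2 alone. The count lower, 0, was 1 (Six4) with the replicate block by day. Without 1 array the counts at day 12 were 0 to 2 higher and 0 to 1 lower, with 285 to 535 of all genes called. Between the days in KO cells, each replicate number alone gave 0 higher and 0 lower in place of 1 and 1, and every probe set tested gave 0 lower. Over all genes, each replicate number alone gave 0 calls in place of 595. Without 1 array the counts between the days were 1 to 2 higher and 0 to 1 lower, with 239 to 593 of all genes called. Within 1 clone or 1 replicate number only 8 arrays remain. The paired block changed no call at day 4 or in the difference between the days. The numbers did not show a pairing over all genes: deviations of control and KO arrays of the same clone, day and number correlated from -0.08 to 0.06, and 0 of 16 arrays correlated best with their own number. Over the 10848 genes with a mean above the median, a subset chosen after the blocked calls had been seen, the correlations were 0.13 to 0.61, with 2 of 16 arrays best with their own number. They were 0.55 to 0.61 at day 4 and 0.13 to 0.32 at day 12. A best match counted only with the same clone as well as the number. It could therefore not show a difference between replicate numbers that both clones share. Whether the numbers mark such a batch was not tested, and a batch would stay in the error of the main fit.

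Most of these genes lie near the low end of the intensities, where a quantile-normalized value has no detection call beside it. A floored fold understates a change that starts under 28.3, and an unfloored one carries the scatter of dim arrays. The floor also takes the scatter under 28.3 out of the error, so p-values of the floored fit can be smaller for that reason alone.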
